A study of Mus musculus with 4 samples.

Results

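The retinoic acid genes described here are the 10 rows of the count tables whose symbol is Aldh1a1, Aldh1a2, Aldh1a3, Rara, Rarb, Rarg, Cyp26a1, Cyp26b1, Crabp1 or Crabp2, out of 49997 genes. They were chosen by name, and all 10 were found and passed the filter on low counts. Their reads were counted in 4 poly(A) RNA libraries from explants of the mouse aorta-gonad-mesonephros region (AGM), the embryonic tissue around the dorsal aorta in which definitive blood stem cells first appear. All explants came from C57BL/6J embryos with no other allele stated and were kept for 48 hours at the gas-liquid interface in MyeloCult with hydrocortisone. The untreated group (n = 2) had no further agent, and the CCCP group (n = 2) received 5 µM CCCP, a protonophore that dissipates the mitochondrial membrane potential, for those 48 hours. The comparison asks what changes when that potential is lost.

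The labels leave several limits. Stages E10.5 and E11.5 are named for the dissection while the series text names E10.5, and no label says how many embryos went into a library or that the replicates were separate pools. The p-values below therefore measure the spread between libraries, which may be technical. The cell type is labelled as embryonic stem cells of the blood, but the protocol takes RNA from the explant, and the RNA looked like that of a whole tissue. Kit had 47.6 to 63.2 CPM (counts scaled to library size) and the leukocyte antigen Ptprc 3.39 to 6.85 CPM, beside 1305 to 2302 CPM for the fibroblast collagen Col3a1. Of the 9 blood stem and progenitor markers listed, 8 passed the filter. Library totals ran from 37360968 to 48827826 counts, with replicate 1 the deeper in each group.

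Retinoic acid is made from vitamin A inside cells, in a second oxidation carried out by the retinaldehyde dehydrogenases of the Aldh1a family. It binds the nuclear receptors encoded by Rara, Rarb and Rarg, which sit on DNA as partners of retinoid X receptors, and it is removed by hydroxylases of the Cyp26 family. The small cytosolic proteins Crabp1 and Crabp2 hold it in between. In the embryonic trunk Aldh1a2 is the main source of the ligand, and retinoic acid signalling in haemogenic endothelium is known to be needed for blood stem cells to form.

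Receptor output can feed back on the pathway, because Rarb and Cyp26a1 are classic direct targets. The receptor dimer binds paired hexamers, and the pair spaced by 5 bases (DR5) is the textbook response element. The hexamers searched here were AGGTCA and AGTTCA as well as GGGTCA and GGTTCA, in any pairing, in 1 direction, with spacers of 1, 2 or 5 bases, on both strands, over RefSeq windows (GRCm38.p6) from 250 bases before to 50 after each annotated start. Of the 10 genes, 8 had at least 1 window in that table. DR5 was found in those of Rarb and Cyp26a1 and in no window of the other 6, and neither the 1-base nor the 2-base spacing was found in any of the 8. Over the whole table, 32 of 32851 windows held a DR5, or 0.0974%. These 2 windows are shown because the 2 genes share the motif and had unlike values below; capitals mark the hexamers, and both are read along the strand of the gene.
Rarb, chr14:16575427-16575726, minus strand: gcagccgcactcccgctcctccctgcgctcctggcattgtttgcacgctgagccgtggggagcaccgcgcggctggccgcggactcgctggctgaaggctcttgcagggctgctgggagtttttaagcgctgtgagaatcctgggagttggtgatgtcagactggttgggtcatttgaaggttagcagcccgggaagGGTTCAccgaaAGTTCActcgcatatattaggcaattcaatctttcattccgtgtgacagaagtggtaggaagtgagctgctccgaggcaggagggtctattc
Cyp26a1, chr19:37697558-37697857, plus strand: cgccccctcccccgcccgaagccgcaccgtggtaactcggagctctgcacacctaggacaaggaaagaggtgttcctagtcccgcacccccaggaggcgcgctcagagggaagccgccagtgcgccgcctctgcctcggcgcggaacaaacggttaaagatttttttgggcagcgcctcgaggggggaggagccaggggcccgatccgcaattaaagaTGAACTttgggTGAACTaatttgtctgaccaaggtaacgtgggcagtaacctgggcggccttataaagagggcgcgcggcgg

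In Rarb the repeat lay from 53 to 37 bases before the RefSeq start of its window (chr14:16575513-16575529). In Cyp26a1 it lay from 32 to 16 bases before the start of its window (chr19:37697776-37697792), on the opposite strand. The starts of these windows are at 16575476 and 37697808. The gene spans given with the values reach further upstream for both genes, so each repeat lies within the annotated span. Reads were counted over exons only, and whether either repeat lies in an exon was not checked. Each repeat is set out below in the direction in which the hexamers read.
Rarb repeat: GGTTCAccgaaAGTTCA
Cyp26a1 repeat: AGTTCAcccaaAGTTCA
A match of letters is a description of the window and not evidence of binding in these explants.

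Among the 10 genes, the largest difference between groups was that of Cyp26a1, whose level in CCCP was 0.422 of that in untreated explants. Rarg and Crabp1 were higher in CCCP by 1.32 and 1.36 times. For the other 7 genes the 95% interval of the log2 fold change included 0. With group alone in the model, no gene passed at an adjusted p-value of 0.05 by edgeR's quasi-likelihood test, and 0% of all 19837 genes tested did. Counts under other models differed and are given with the dependence on processing. DESeq2 called 594 of all genes and 0 of the 10. At an unadjusted p under 0.05 there were 3 of the 10 (Crabp1, Cyp26a1 and Rarg), against 14.6% of all genes tested. The 2 groups did not overlap for 6 of the 10 genes, with Aldh1a2, Rarb, Rarg, Cyp26b1 and Crabp1 higher in CCCP and Cyp26a1 lower. Among all genes tested 48.8% did not overlap, 24% higher and 24.8% lower, so a lack of overlap was common in these libraries. The median log2 fold change was 0.17 over the 10 genes and -0.01 over all genes. In these bulk libraries fewer cells that express a gene and less of its RNA per cell cannot be told apart.

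Levels per length spanned more than 2 orders of magnitude. In CPM per kilobase of exon, averaged over the 4 libraries, the order was Crabp1 (176.8), Crabp2 (154.3), Aldh1a2 (32.1), Rara (17.7), Rarg (16.2), Rarb (13.7), Cyp26b1 (2.25), Aldh1a3 (1.36), Cyp26a1 (0.985) and Aldh1a1 (0.553). The libraries of neighbours in this order overlapped for Crabp1 and Crabp2, for Rara and Rarg, for Rarg and Rarb, for Aldh1a3 and Cyp26a1, and for Cyp26a1 and Aldh1a1. Within the groups 2 pairs of neighbours changed places: Cyp26a1 stood above Aldh1a3 untreated (means of 1.38 and 1.26) but below it with CCCP (0.585 and 1.45), and Rarg stood below Rara untreated (13.98 and 17.2) but just above it with CCCP (18.5 and 18.2). The binding proteins thus stood above the synthesis enzymes and receptors, and the breakdown enzymes, Aldh1a3 and Aldh1a1 were lowest.

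**Figure D1:**
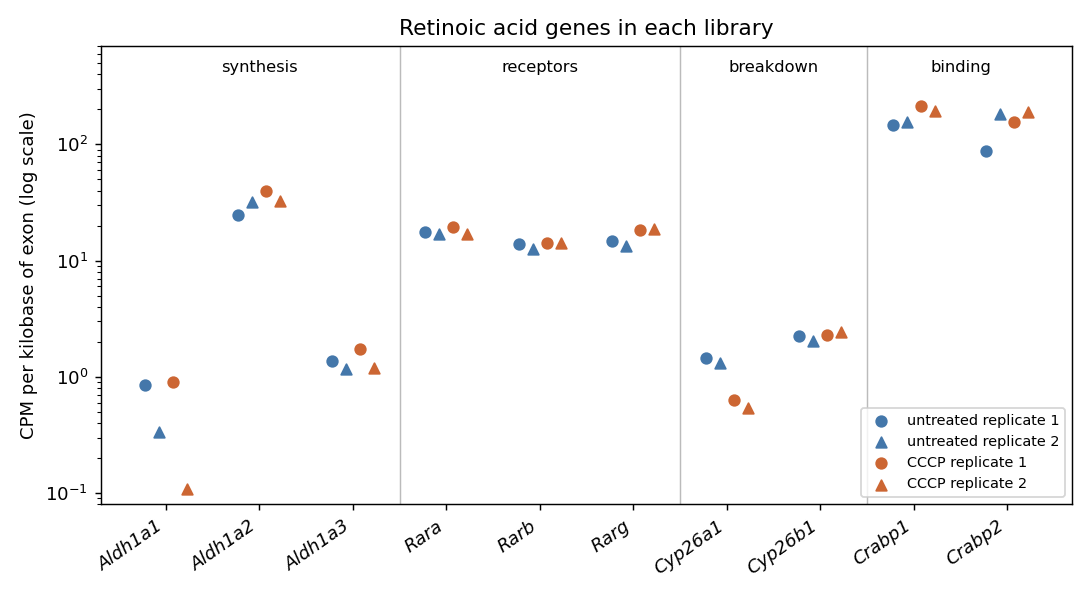
Levels of the 10 genes in each of the 4 libraries, in CPM per kilobase of exon on a log scale, grouped by role; each point is 1 library, with colour for the group and shape for the replicate number. Both CCCP libraries of Cyp26a1 (0.634 and 0.536) lie below both untreated ones (1.46 and 1.31), and Aldh1a1 splits by replicate number.

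Among the synthesis enzymes, most of the RNA per length was that of Aldh1a2. Its share of the summed Aldh1a level per length was 91.7% and 95.5% untreated against 93.8% and 96.2% with CCCP. Aldh1a2 (chromosome 9, 71215789 to 71296243), the retinaldehyde dehydrogenase of embryonic mesoderm, had 55.4 and 72.4 CPM untreated and 89.5 and 73.5 CPM with CCCP. Both CCCP libraries were above both untreated ones, but CCCP replicate 2 exceeded untreated replicate 2 by only 1.01 times. The fitted log2 fold change, 0.35 (standard error 0.174), had a 95% interval from -0.07 to 0.78 (edgeR adjusted p 0.402). Dropping untreated replicate 1 gave 0.18 and dropping untreated replicate 2 gave 0.58.

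Aldh1a2 also marks the coelomic lining in the embryonic trunk, so the markers of that lining were read beside it. Of 6 mesothelial markers, 1 did not overlap between groups and 0 had an unadjusted p under 0.05. Over all genes tested those shares were 48.8% and 14.6%. In replicates 1 and 2 the 6 markers summed to 136 and 99.6 CPM untreated and to 122 and 105 CPM with CCCP. In the same order Wt1 had 36.9 and 24.2 CPM untreated and 37 and 30.05 CPM with CCCP. None of the 6 was at 0 in any library. The part of these cells in the value of Aldh1a2 was not tested.

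Aldh1a3 (chromosome 7, 66390892 to 66427477), a further enzyme of the same step, was low. It had 4.61 and 3.98 CPM untreated and 5.85 and 4.02 CPM with CCCP, on 146 to 284 counts. Groups overlapped, and a log2 fold change of 0.20 (standard error 0.293, edgeR adjusted p 0.771) was -0.10 without CCCP replicate 1 and 0.44 without CCCP replicate 2.

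Aldh1a1 (chromosome 19, 20492583 to 20643463), the third enzyme, varied with the replicate number rather than with CCCP. Its counts were 130 and 38 in untreated replicates 1 and 2, and 133 and 12 in CCCP replicates 1 and 2, or 2.60, 1.02, 2.74 and 0.331 CPM. Replicate 1 was thus 2.56 times replicate 2 in the untreated group and 8.28 times in the CCCP group. CCCP over untreated gave a log2 fold change of -0.22 (standard error 0.916, edgeR adjusted p 0.928). Leaving out CCCP replicate 1 gave -2.45, and leaving out CCCP replicate 2 gave 0.59, so this comparison had no settled direction. The count is also uncertain because Aldh1a1 shares exon bases with another annotated gene on its own strand, and reads in shared bases were not counted. Summed over all pairs of listed exons the shared bases came to 1356, a sum that can count a base more than once.

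Of the 4 gonadal ridge markers, 3 (Nr5a1, Gata4 and Amhr2) were also higher in replicate 1 in both groups, while Lhx9 was not. The nuclear receptor Nr5a1, which marks adrenogonadal precursors, had 4.85 and 6.18 CPM in the replicate 1 libraries and 1.68 and 1.65 CPM in the replicate 2 libraries, untreated and CCCP in turn. Summed over the 4 gonadal ridge markers, the replicate 1 libraries had 49.1 and 51.9 CPM and the replicate 2 libraries 35.8 and 36.2 CPM. Mesonephric markers, 6 genes, summed to 195.6 and 178 CPM in replicate 1 and to 134.9 and 133.4 CPM in replicate 2, although Gata3 among them was higher in replicate 2 in both groups. Marker lists of other tissues were split too. Mesenchymal markers summed to 5718 and 4786 CPM in replicate 1 and to 3305 and 3682 CPM in replicate 2. Mesothelial, neuronal and skeletal muscle markers also summed higher in replicate 1 in both groups. Blood and neural crest markers summed higher in replicate 2 in both groups, and endothelial and hepatic markers differed in direction between groups. None of the 4 gonadal ridge markers was at 0 in any library. The part of these replicate differences in the values of Aldh1a1 was not tested.

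The 3 receptors were present at like levels. Per length, Rara made up 34.1% to 39.3% of the summed receptor level, Rarb 27.1% to 29.95% and Rarg 31.04% to 37.4%. The share of Rarg was 32.0% and 31.04% untreated against 35.4% and 37.4% with CCCP, without overlap. Shares of raw counts gave Rarg 27.9% and 27.03% untreated against 31.04% and 33.1% with CCCP.

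Rarg (chromosome 15, 102234938 to 102257522), the receptor linked to mesenchyme and skeleton and, in adults, to blood stem cell maintenance, had 52.5 and 47.3 CPM untreated and 65.5 and 66.5 CPM with CCCP. Both CCCP libraries lay above both untreated ones. The log2 fold change, 0.40 (standard error 0.117), had a 95% interval from 0.12 to 0.69 (unadjusted p 0.0133, edgeR adjusted p 0.251). Leaving out 1 library gave values from 0.35 to 0.49. With the trend on GC content removed from each library the value was 0.23 (unadjusted p 0.0959); genes of like GC content to Rarg had a median of 0.17.

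Rara (chromosome 11, 98927800 to 98974942), the most broadly expressed receptor, overlapped between groups. It had 83.2 and 79.8 CPM untreated and 92.3 and 80.7 CPM with CCCP. The fit gave a log2 fold change of 0.09 (standard error 0.121, edgeR adjusted p 0.763), and it was -0.10 with the GC trend removed. Rara shares exon bases with a predicted gene on the other strand. Summed over all pairs of listed exons these came to 728, a sum that can count a base more than once. Strand was not used in the counting, so its level is uncertain to that extent.

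Rarb (chromosome 14, 16430839 to 17082331), the receptor gene with the DR5 shown above, had 52.04 and 47.8 CPM untreated and 53.2 and 53.7 CPM with CCCP. The CCCP libraries were higher than both untreated ones by a narrow margin, 1.02 times between the replicate 1 libraries. A log2 fold change of 0.10 (standard error 0.116, edgeR adjusted p 0.711) had a 95% interval from -0.18 to 0.38. The counts sum all exons of the gene, so transcripts from the start with the repeat cannot be separated from those of other starts.

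**Figure D2:**
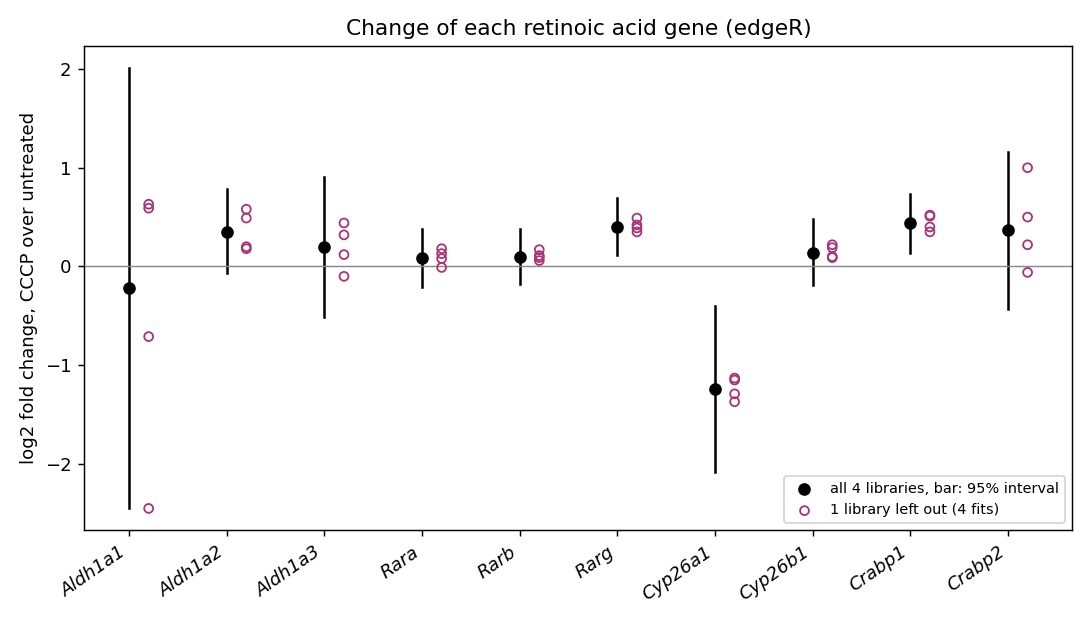
Log2 fold change of each gene, CCCP over untreated, from edgeR with all 4 libraries (filled points, bars for the 95% interval) and with 1 library left out at a time (open points). The interval excludes 0 for Rarg (0.12 to 0.69), Cyp26a1 (-2.08 to -0.40) and Crabp1 (0.14 to 0.73), before any adjustment for the number of genes, and the open points of Aldh1a1, Aldh1a3, Rara and Crabp2 lie on both sides of 0.

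Of the breakdown enzymes, Cyp26a1 was lower with CCCP and Cyp26b1 was not. Cyp26a1 (chromosome 19, 37697738 to 37701536), the inducible hydroxylase that clears retinoic acid, was covered by 135 and 91 counts untreated and by 57 and 36 with CCCP. These are 2.69 and 2.43 CPM against 1.17 and 0.992 CPM, or 2.56 ± 0.186 against 1.08 ± 0.129 CPM (SD, n = 2 in each group). Each CCCP library was at 0.368 to 0.483 of each untreated one. The log2 fold change of -1.24 had a standard error of 0.346 and a 95% interval from -2.08 to -0.40 (unadjusted p 0.0112, edgeR adjusted p 0.242, DESeq2 adjusted p 0.146). Leaving out 1 library gave values between -1.37 and -1.13, and its sign was the same in all 13 alternatives run. These reuse the same libraries, whose groups did not overlap, so the kept sign adds no separate support. The genes of like exon length and those of like GC content had medians of 0.16 and 0.18.

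Markers of hepatic cells were also lower in CCCP, where 10 of 10 were below both untreated libraries, against 24.8% of all genes. They summed to 1676 and 982 CPM untreated, against 53.3 and 106 CPM with CCCP. Afp had 859 and 577 CPM against 1.69 and 44.8 CPM, and Fga was at 0 counts in CCCP replicate 1, the sole marker at 0 in any library. In the untreated group both the hepatic sum and Cyp26a1 were higher in replicate 1. With CCCP the hepatic sum was higher in replicate 2, though Trf and Hnf4a, like Cyp26a1, were higher in replicate 1. The part of hepatic cells in the value of Cyp26a1 was not tested.

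Cyp26b1 (chromosome 6, 84571414 to 84593908), the hydroxylase known from embryonic gonad, limb and skeleton, had 27.9 and 25.4 CPM untreated and 28.5 and 30.4 CPM with CCCP. The CCCP libraries were the higher ones, by 1.02 times in replicate 1. Its log2 fold change of 0.14 (standard error 0.138, 95% interval from -0.19 to 0.48, edgeR adjusted p 0.648) became -0.01 with the GC trend removed. With the exon length trend removed it was 0.40 (unadjusted p 0.0294). Its annotated exons are long, at 12492 bases, and the 1000 genes nearest to it in exon length had a median log2 fold change of -0.33.

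The make-up of the Cyp26 pair therefore differed between groups. Per length, Cyp26a1 held 39.5% and 39.2% of the pair untreated against 21.8% and 18.04% with CCCP. As raw counts, which the longer Cyp26b1 dominates, the share of Cyp26a1 was 8.81% and 8.72% untreated and 3.96% and 3.16% with CCCP. The summed level of the pair was 3.69 and 3.35 CPM per kilobase untreated and 2.91 and 2.97 with CCCP. No test of a share is given: with 2 libraries a group, the smallest two-sided p of an exact permutation test is 0.333. Cyp26c1, the third member of that family, had 0 to 5 counts a library and was not tested.

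**Figure D3:**
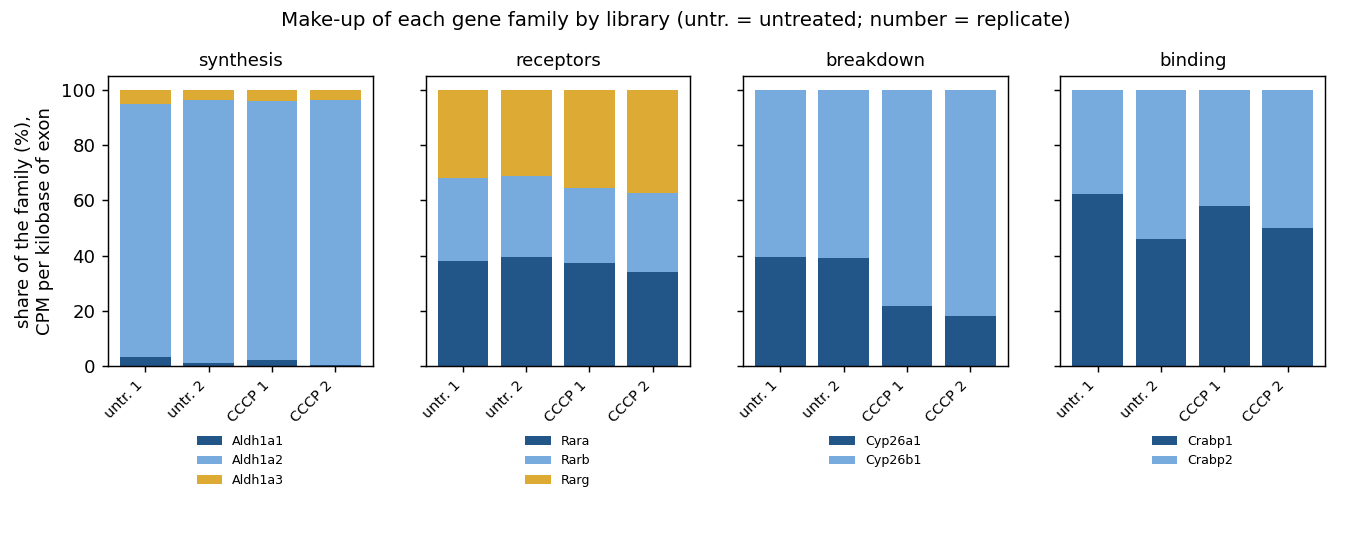
Share of each gene in the summed level of its family, in percent of CPM per kilobase of exon, for each library (bars; n = 2 libraries a group). Aldh1a2 holds over 91% of the synthesis enzymes in every library, and the share of Cyp26a1 in the breakdown pair is 39.5% and 39.2% untreated against 21.8% and 18.04% with CCCP.

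The binding proteins were the most abundant of the 10 genes. Crabp1 (chromosome 9, 54764748 to 54773110), which sequesters retinoic acid in the cytosol, had 116.4 and 124.3 CPM untreated and 172.6 and 153.7 CPM with CCCP. The groups did not overlap, and CCCP replicate 2 was 1.24 times untreated replicate 2. The log2 fold change, 0.44 (standard error 0.121), had a 95% interval from 0.14 to 0.73 (unadjusted p 0.0106, edgeR adjusted p 0.241, DESeq2 adjusted p 0.101). It was 0.23 (unadjusted p 0.152) with the exon length trend removed. Short genes tended to be higher in CCCP, and the 1000 genes nearest to Crabp1 in exon length (802 bases) had a median of 0.25.

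Crabp1 is also a marker of neural crest derived cells, and Sox10, which marks early crest and Schwann cell precursors, had 31.5 and 39.5 CPM untreated and 53.9 and 64.3 CPM with CCCP. Of the 6 markers of these cells, 2 were higher without overlap and 1 lower without overlap. Over all genes tested 24% were higher and 24.8% lower without overlap. Their summed level was 244 and 247 CPM untreated and 283 and 286 CPM with CCCP, and none was at 0. The part of crest-derived cells in the value of Crabp1 was not tested.

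Crabp2 (chromosome 3, 87948693 to 87953372), which hands retinoic acid to the nuclear receptors, was decided by 1 library. It had 79.3 CPM in untreated replicate 1 and 163.5 CPM in untreated replicate 2, and 140.9 and 172.0 CPM in the CCCP libraries. Untreated replicate 1 stood below the other 3, and untreated replicate 2 lay between the CCCP libraries. The log2 fold change of 0.37 had a standard error of 0.325 (edgeR adjusted p 0.618). Dropping untreated replicate 1 gave -0.06 and dropping untreated replicate 2 gave 1.0.

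Beyond the 10 genes, 67 others of the pathway were read from lists by role, and 60 of them passed the filter. None passed at an adjusted p of 0.05 in edgeR, and DESeq2 called 3, all lower (Rbp4, Ttr, Rora). Among all 19837 genes tested DESeq2 called 594, of which 535 were lower. At an unadjusted p under 0.05 there were 4 higher in CCCP, against 5.45% of all genes tested, and 11 lower, against 9.16%. The median log2 fold change was -0.06 over the 60, beside -0.01 over all genes.

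The largest differences were those of the plasma retinol carriers and of Lrat, all lower with CCCP. Rbp4, the plasma carrier of retinol, had 32.9 and 25.0 CPM untreated and 3.34 and 6.61 CPM with CCCP, a log2 fold change of -2.55 (standard error 0.353, edgeR adjusted p 0.144). Ttr, its partner in plasma, had 16.1 and 8.15 CPM against 0.823 and 1.05 CPM, a log2 fold change of -3.70 (edgeR adjusted p 0.133). DESeq2 called both, with adjusted p-values of 1.23e-10 and 5.16e-15. Lrat, which stores retinol as esters, had 25 counts in each untreated library and 2 and 0 in the CCCP libraries. Both CCCP counts were under the floor of 3 counts per library. The untreated mean, 0.584 CPM, was 7.06 times that floor in CCCP replicate 2 (0.0826 CPM), a ratio that is not a lower limit on the change. The fitted log2 fold change of Lrat, -4.50, had a confidence interval from -6.95 to -2.05. All 3 genes are known from liver and were lower beside the hepatic markers given above; what those cells contribute was not tested.

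The gene for retinol entry into cells differed in the other direction. Stra6, the membrane receptor for the Rbp4 carrier, had 69.3 and 57.5 CPM untreated and 82.1 and 84.1 CPM with CCCP, a log2 fold change of 0.39 (standard error 0.132, unadjusted p 0.0249, edgeR adjusted p 0.287). In that list of 11 genes for uptake, carriage and storage, 2 were higher and 6 lower without overlap, against 24% and 24.8% of all genes, with a median of -0.35. That median was -0.10 without untreated replicate 1 and -1.17 without CCCP replicate 1.

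For the first oxidation, from retinol to retinaldehyde, Rdh10 is the main embryonic enzyme. It had 38.2 and 38.3 CPM untreated and 51.1 and 37.02 CPM with CCCP, and the groups overlapped (log2 fold change 0.20, edgeR adjusted p 0.610). Dhrs3, which reduces retinaldehyde back to retinol, had 37.9 and 26.7 CPM against 41.7 and 40.4 CPM, at 0.34 (standard error 0.187, edgeR adjusted p 0.435). Dhrs4, another reductase, had 19.7 and 23.1 CPM against 29.3 and 29.7 CPM, at 0.46 (unadjusted p 0.0211, edgeR adjusted p 0.277). Rdh13 and Rdh12, of the same enzyme family, stood at 0.29 and 0.89, the latter on 18 to 46 counts. Of the 12 dehydrogenases and reductases tested, 5 were higher and 1 lower without overlap, a share near the 48.8% of all genes, and the median of 0.23 was 0.11 once the exon length trend was removed.

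The 3 heterodimer partners were each higher without overlap, by small amounts, as were 24% of all genes tested. The list of 7 partners and other receptors had a median log2 fold change of 0.16, which was 0.04 with the GC trend removed. Rxrb had 81.2 and 81.6 CPM untreated and 101.7 and 101.0 CPM with CCCP, a log2 fold change of 0.32 (standard error 0.107, unadjusted p 0.0245, edgeR adjusted p 0.287). Its row also lists exons on an alternate contig, so reads placed at both loci may be missing from it. Rxra had 107.2 and 97.9 CPM against 115.0 and 113.4 CPM, at 0.16 (edgeR adjusted p 0.544), and Rxrg, at 5.80 to 8.44 CPM, stood at 0.33. Ppard, a receptor that also accepts retinoic acid, stood at 0.21, and its row, like that of Rxrb, lists exons on an alternate contig. Fabp5, which carries ligand to Ppard, stood at -0.06 with overlap. Rora, an orphan receptor of another branch, was lower, at 22 and 16.0 CPM against 10.9 and 9.37 CPM (log2 fold change -0.91, edgeR adjusted p 0.215, DESeq2 adjusted p 0.0213). The annotated exons of Rora are long, at 51045 bases, and over all genes the log2 fold change fell with exon length (Spearman correlation -0.35).

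Of the coregulators of the receptors, 9 of 10 had a log2 fold change below 0, and none passed the edgeR test after adjustment. Of 10, 7 were lower and 1 higher without overlap, and 5 had an unadjusted p under 0.05, all of them lower. Over all genes tested those shares were 24.8% lower and 24% higher without overlap, and 9.16% lower at that p. No test of the list was made. Ep300, a histone acetyltransferase, had 220.7 and 202 CPM untreated and 158 and 170.8 CPM with CCCP. The corepressor Ncor1 had 222 and 201 CPM against 154 and 175 CPM, and each had a log2 fold change of -0.36 (edgeR adjusted p 0.278 and 0.301). Ncoa2, a coactivator, stood at -0.36, and Nrip1, a corepressor that retinoic acid itself induces, at -0.41. These genes are long, with a median of 9794 exon bases, and the list median of -0.34 was -0.09 once the exon length trend was removed.

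Genes known to respond to retinoic acid did not move together. Of 21 listed, 19 were tested, 4 were higher and 4 lower without overlap, against 24% and 24.8% of all genes, and the median was -0.06. Hoxd4, a positional gene with a response element of its own, had 74.9 and 80.8 CPM untreated and 58.3 and 58.6 CPM with CCCP, a log2 fold change of -0.41 (unadjusted p 0.00990, edgeR adjusted p 0.236). Tbx5, a limb and heart regulator, had 30.8 and 21.3 CPM against 16.1 and 18.8 CPM, at -0.58 (edgeR adjusted p 0.319). Zfp703 went the other way, at 96.3 and 100.1 CPM against 119.1 and 126.4 CPM, at 0.32 (edgeR adjusted p 0.294).

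**Figure D4:**
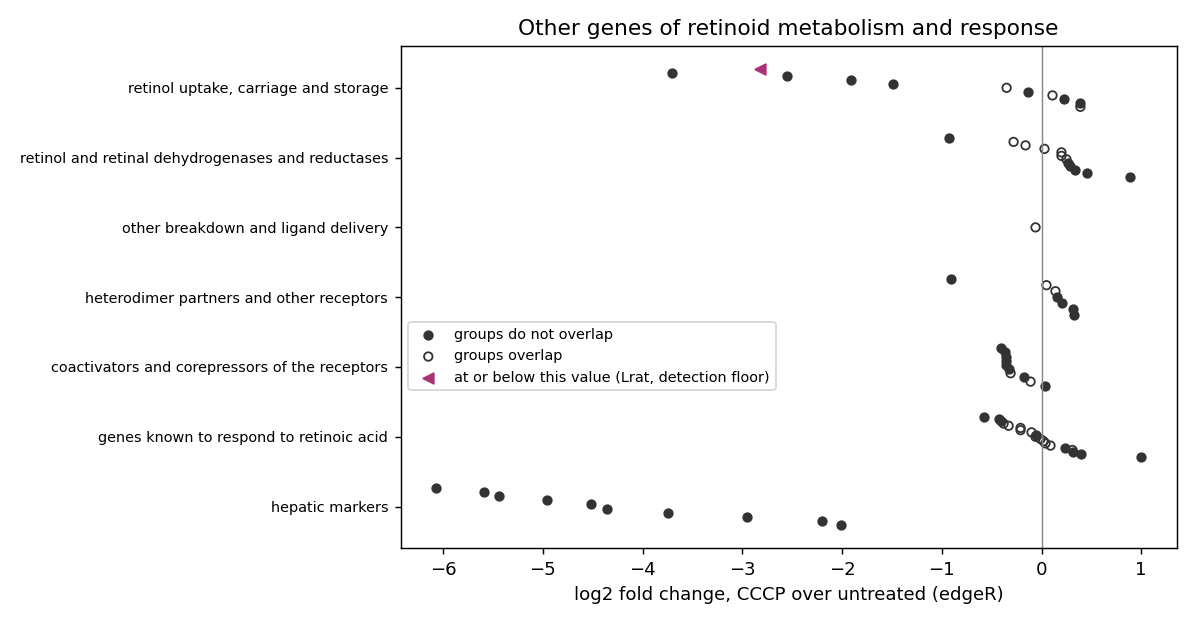
Log2 fold change (CCCP over untreated, edgeR) of each tested gene in 6 lists of retinoid genes by role and of 10 hepatic markers. Filled points are genes whose groups did not overlap. The triangle places Lrat by the floor of 3 counts and is not a confidence limit. The carriers Ttr (-3.70) and Rbp4 (-2.55) lie in the range of the hepatic markers (-6.07 to -2.01), while the genes known to respond to retinoic acid centre on -0.06.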

How the data were processed

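Read counts per gene were deposited by the authors for 4 libraries, raw and unscaled. Per the file headers they were made with featureCounts 2.0.3 on the mm10 RefSeq annotation, summed over exons, with no strand option, single reads of a pair counted, and multi-mapping or shared reads left out. HISAT2 and SAMtools are named in the submitters' processing notes. Groups came from sample titles. The header of untreated replicate 1 differs from its title by a letter, so the record of the file was used.

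The counts were tested with edgeR 4.0.16 in R 4.3.3 (glmQLFit, glmQLFTest; TMM; filterByExpr with minimum count 10 and total 15; group alone; two-sided; Benjamini-Hochberg over 19837 genes). The standard error is the log2 fold change over the root of F. CPM used TMM factors of 0.966 to 1.04. Totals of 37360968 to 48827826 put the floor of 3 counts at 0.0599 to 0.0826 CPM, which covers counting error only. All 10 genes are named. From each pathway list the up to 4 smallest unadjusted p-values and preset role genes are named, and from marker lists the most abundant. Some genes that this rule picks are not reported here. Members and lists were chosen with earlier results of these data known. Markers named beyond that (Ptprc, Nr5a1, Wt1, Sox10 and Fga) were chosen for their role or after their values were seen. Alternatives were DESeq2 1.42.0, other scalings, no filter, a replicate block, removal of exon length or GC trends (the latter chosen after seeing the data, from GENCODE transcripts of the same build, with 90.4% of genes matched), and leaving out each library. The scripts were tested on simulated data.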

Additional observations from a re-analysis of the deposited data

How the results depend on the processing

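All 10 genes were refitted under 13 alternatives. Aldh1a2, Rarb, Rarg, Cyp26a1 and Crabp1 had the same sign in all 13. All 13 reuse the same libraries, so an unchanged sign is not separate support. Removing the GC trend, an alternative added once the data had been seen, put Rara at -0.10 and Cyp26b1 at -0.01, and adding the replicate block to it gave -0.10 and -0.01. Leaving out 1 library gave ranges of -2.45 to 0.63 for Aldh1a1, -0.10 to 0.44 for Aldh1a3, -0.01 to 0.18 for Rara and -0.06 to 1.0 for Crabp2. The count of the 10 genes without overlap was 6, but 3 (Rarg, Crabp1 and Cyp26a1) under total count scaling (median over all genes -0.07). It was 3 with the GC trend removed and 4 with the exon length trend removed, each with or without the block. With 1 library left out it was 7 to 9, but a group of 1 library overlaps less easily. Those with an unadjusted p under 0.05 numbered 3, against 5 without the low-count filter and 1 (Cyp26a1) with the GC trend removed. The shares of all genes under these alternatives are not given, so these counts cannot be set against a background. Over all genes the count at an adjusted p under 0.05 was 0, and became 1107 without the filter (217 higher, 890 lower), 594 in DESeq2 (59 higher, 535 lower) and 1 to 34 with 1 library left out (34 without untreated replicate 2, 22 without CCCP replicate 2). The cause was not tested.

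The replicate block called 2118 genes (754 higher, 1364 lower) and 3 of the 10 (Rarg, adjusted p 0.0347; Cyp26a1, 0.0398; Crabp1, 0.0284), with 5 at an unadjusted p under 0.05. With the block and the exon length trend removed it called 1323 genes, 1 of the 10 (Cyp26a1, adjusted p 0.0384), and with the GC trend removed in place of length, 798 genes, again 1 of the 10 (Cyp26a1, adjusted p 0.0464). Over all alternatives the adjusted p of Cyp26a1 ran from 0.0384 to 0.791. Same-numbered libraries deviated together (correlation 0.36 over 19837 genes), but the meaning of the numbers is not given and there are just 2 pairs, so they were not taken as pairing the libraries. Depth limits Aldh1a1 and Cyp26a1 most, at 12 to 135 counts a library.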

Other observations

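Outside the 10 genes, other genes in the RefSeq table carry the same 5-base spaced repeat near a start. There were 31 such genes in all, Rarb and Cyp26a1 among them, and 12 of the 31 passed the filter, those included. Of these 12, 2 were higher and 5 lower in CCCP without overlap, and 4 had an unadjusted p under 0.05, all lower. Over all genes tested 48.8% did not overlap, 24% higher and 24.8% lower, and 9.16% were lower at that p. Their log2 fold changes ran from -1.77 for Tnfsf13b, a cytokine of the TNF family, to 0.46 for Prss27, a serine protease, with a median of -0.33. A match of letters does not show that a gene responds to retinoic acid.

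Fgf8, a growth factor that retinoic acid restrains in the trunk, was split by replicate number like Aldh1a1 but in the opposite direction. It had 20 counts in each replicate 1 library, against 128 in untreated replicate 2 and 92 in CCCP replicate 2. In CPM these were 0.399 and 0.412 against 3.42 and 2.53, and the log2 fold change between groups was -0.38 (standard error 1.12, edgeR adjusted p 0.897).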
